A study of Oryza sativa with 24 samples.

Results

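Across roots and leaves of rice seedlings, 11 of the 57194 non-control probe sets on a 1-colour array read higher on every array labelled 120 min than on every array labelled 30 min, in both organs. They were chosen by those very values: in root and in leaf alike, the lowest raw signal among the 6 arrays labelled 120 min had to exceed the highest among the 6 labelled 30 min, with both treatments pooled. The mean 120 min signal had to be at least 100 in both organs, and probe sets named OsRR or OsCKX were left out. Of 20279 probe sets over that minimum, 16 (0.0789%) met the numeric rule, and 5 of them carried an OsRR or OsCKX name. The 11 others represent 7 genes through 10 probe sets, 4 of which belong to the gene LOC4338151, and 1 probe set is paired with no gene in the annotation used and is called the unannotated probe set here. The rule was met in root alone or in both by 190 probe sets (0.937%) and in leaf alone or in both by 91 (0.449%). Every difference between the times is therefore given as a description, without a test.

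The plants were 2-week-old hydroponic seedlings of the cultivar Nipponbare. Whole roots or the third leaf were excised and floated at 30 °C in water that held 0.1% dimethylsulfoxide (DMSO, the solvent), either alone or with 5 µM trans-zeatin (tZ, an active cytokinin). Incubation lasted 30 or 120 min, so there were 8 groups of 3 arrays, and each organ had arrays with DMSO and with tZ at either time. All groups share the cutting, the solvent and the incubation, and no group was sampled before incubation.

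Cytokinins are perceived by membrane histidine kinases, which pass a phosphate through phosphotransfer proteins to type-B response regulators in the nucleus, and these turn on target genes. Among the quickest targets are the type-A response regulators, which dampen the signal, and the cytokinin oxidases or dehydrogenases (CKX), which break the hormone down. The grouping was drawn up to list candidates that would share the behaviour of these targets if labels of treatment and time had been exchanged between arrays. Whether any labels were exchanged was not tested, and each array is described below by its label.

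Groups were taken from the titles, because all 24 samples have root in the tissue field. The protocol text is also unclear on time: for the root tZ 30 min samples it names both incubation times. In a root DMSO 30 min sample the protocol fields are shifted. The titles were followed for time too, and whether they give the right time was not tested. The organ markers followed the titles: OsrcaA1, which encodes Rubisco activase, read 6.6 to 169.6 on root arrays and 15720.4 to 26538.2 on leaf arrays, and the Casparian strip gene OsCASP1 read 2019.3 to 2666.2 in root and 2.5 to 27.1 in leaf. Of the other leaf markers, OsrbcS and LFNR1 also had ranges that did not overlap between organs, and CAB2R read 1206.5 to 10560.0 in root and 17107.3 to 25237.1 in leaf. Replicate arrays correlated at 0.960 to 0.982 on the log2 scale, and after leaving out the lowest and highest 2% of probe sets the mean signal was 500.07 to 500.08 on every array. The labels do not state that replicate arrays used separate cultures, and p-values then reflect only how far these arrays vary, which may be technical variation. In these whole organs, fewer cells of a type and less RNA per cell cannot be told apart.

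The 5 probe sets left out by name did not share 1 response to tZ. OsRR9, a type-A response regulator gene, read 1998, 1977 and 1895 in root with DMSO at 30 min and 1267, 1221 and 1406 with tZ at 30 min, then 17231, 16266 and 14776 with DMSO at 120 min and 11199.7, 8579 and 10553 with tZ at 120 min. In leaf its signals were 2998, 3085 and 3228 with DMSO at 30 min, 1023, 934 and 1012 with tZ at 30 min, 13037, 13366 and 11877 with DMSO at 120 min and 12032, 12220.1 and 13017 with tZ at 120 min. Its tZ arrays were thus below its DMSO arrays at 30 min in both organs, although type-A genes are known for a quick rise after cytokinin. The other 4 were OsRR6, OsRR4 and OsRR1, which are also type-A genes, and the dehydrogenase gene OsCKX4. At 30 min in root, OsRR6, OsRR4 and OsRR1 had all tZ arrays above all DMSO arrays, with means of 5086 ± 219 against 2454 ± 167, 2340.3 ± 213 against 629 ± 30.3 and 144 ± 20.1 against 101 ± 7.81 (SD, n = 3). At 30 min in leaf, OsRR6 (2034 ± 94.1 against 1144 ± 21.4) and OsRR4 (354 ± 40.6 against 301 ± 4.51) again had all tZ arrays above all DMSO arrays, while OsRR1 had all of them below. OsCKX4 had all tZ arrays below all DMSO arrays at 30 min in both organs. The separation of OsRR4 in leaf was slight, with a lowest tZ signal of 307.2 and a highest DMSO signal of 305.4. In the limma test described below, OsRR4 in leaf (adjusted p = 0.070) and OsRR1 in root (adjusted p = 0.088) did not pass at 30 min. The other 30 min differences given here passed.

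**Figure D1:**
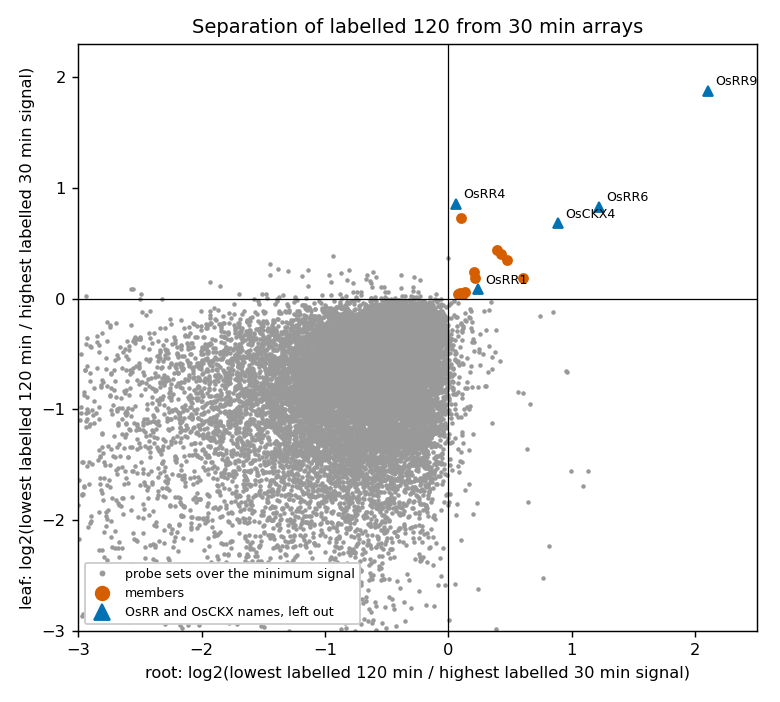
For every probe set over the minimum signal, the ratio of the lowest 120 min signal to the highest 30 min signal is plotted in root (horizontal axis) and in leaf (vertical axis), both as log2 values; probe sets with a ratio below the lower end of an axis are not drawn. Coloured points mark the 11 probe sets and the 5 left out by name, which are the points with both ratios above 1 (0 on the log2 scale); all other probe sets are grey.

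Among the 11, the separation between the times was narrower than for OsRR9, which had the widest of the 5 left out by name. The ratio of the lowest 120 min signal to the highest 30 min signal is called the margin here. The smaller organ margin was 1.05 for OsRR4 (root) and 1.06 for OsRR1 (leaf). Among the 11 it was up to 1.32, for a probe set of LOC4338151. It was smallest for LOC4346884, LOC4338151 (its x_at probe set) and LOC4342532, at 1.03 in leaf for each. Just outside the rule lay a probe set with no gene and a margin of 0.997 in root (1287.6 against 1291.5), LOC4343673 with 0.983 in leaf (1564.1 against 1590.6) and MYBS2, a MYB transcription factor gene, with 0.977 in leaf (600.1 against 614.0). The reverse rule, with all 120 min arrays below all 30 min arrays in both organs, was met by 1 probe set, of LOC4336988, which read 9569.5 to 10731.8 at 30 min and 7595.0 to 9280.6 at 120 min in root. Its leaf signals were 4089.4 to 4356.4 at 30 min and 3875.1 to 3969.5 at 120 min. The same kind of rule applied to the treatment labels, with times pooled, was met by 1062 probe sets with tZ above DMSO in both organs and by 1664 with tZ below.

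OsHox1 (LOC4349388) is on chromosome 10 of the RefSeq assembly ASM3414082v1 and encodes a homeodomain-leucine zipper transcription factor studied in rice for its part in leaf vascular development. Its root signals were 1472, 1236 and 1097 with DMSO at 30 min, 1038, 885 and 950.0 with tZ at 30 min, 3468, 2888 and 3188 with DMSO at 120 min, and 1950.1, 1702 and 1909.6 with tZ at 120 min. In leaf they were 3467, 3119 and 3356, then 2640.2, 2475 and 2453, then 4094, 4217 and 4171, and lastly 4348, 4269 and 4426 for the same groups in the same order. The tZ arrays were all below the DMSO arrays at both times in root and at 30 min in leaf. At 120 min in leaf they were all above, by a small distance.

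ROMT-17 (LOC4345935), on chromosome 8, is named as an O-methyltransferase gene, a class of enzymes that add methyl groups to hydroxyl groups of plant phenolics. In root it read 3318, 3349.6 and 3155 with DMSO at 30 min, 2271, 2054 and 2274 with tZ at 30 min, 4531, 4012 and 3892 with DMSO at 120 min, and 3818, 3681 and 3697 with tZ at 120 min. Leaf arrays gave 4595, 4594 and 4624 with DMSO at 30 min and 2086, 1942 and 1885 with tZ at 30 min. At 120 min the leaf signals were 5643, 5666 and 5802 with DMSO and 5026, 4829.5 and 4987 with tZ. The tZ arrays lay below the DMSO arrays in all 4 settings. The gap was widest at 30 min in leaf, where the tZ signals were under all others of this probe set in that organ.

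LOC4337154 (chromosome 4) is known here by its gene identifier only. Its root signals were 436, 466 and 511 with DMSO at 30 min, 351, 315 and 210.3 with tZ at 30 min, 862, 777 and 1109 with DMSO at 120 min, and 1155, 949 and 1112 with tZ at 120 min. Leaf signals were 582, 608 and 542 with DMSO at 30 min, 180.4, 177 and 193 with tZ at 30 min, 716, 693 and 746 with DMSO at 120 min, and 1129.6, 1048 and 1102 with tZ at 120 min. The DMSO and tZ arrays crossed over in leaf: all 3 tZ arrays were lower at 30 min and all 3 were higher at 120 min. In root they did so at 30 min, while at 120 min the 2 treatments overlapped.

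LOC4338151, on chromosome 5, is represented by 4 of the 11 probe sets, which are not independent readings: the suffixes of their names (x_at for 1, s_at for 1 and a_at for the other 2) mark probes that can match several transcripts, so signal from related transcripts may be included. The brightest, the x_at probe set, read 5046, 6599 and 6073 in root with DMSO at 30 min, 3978, 3977 and 3375 with tZ at 30 min, 9046, 7896 and 9154 with DMSO at 120 min, and 9052, 7182 and 9422 with tZ at 120 min. In leaf it read 2128, 1929.9 and 2393 with DMSO at 30 min, 612, 671 and 685 with tZ at 30 min, 2466, 2519.6 and 2994 with DMSO at 120 min, and 3295, 3416 and 3423 with tZ at 120 min. The leaf arrays thus fell into 4 steps that rose from tZ at 30 min through DMSO at 30 min and DMSO at 120 min to tZ at 120 min. The same leaf order held for the means of the other 3 probe sets. For the s_at probe set these means were 577 ± 110.5, 1507 ± 75.5, 1944 ± 144 and 2459.8 ± 45.5 (SD, n = 3). The brighter a_at probe set gave 681 ± 31.9, 1705 ± 43.8, 2261 ± 44.0 and 3068 ± 131, and the dimmer a_at probe set gave 446 ± 57.9, 1239 ± 51.4, 1741 ± 41.5 and 2415 ± 62.5 in that order.

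LOC4335099 (chromosome 4), again a gene known here by identifier, had root signals of 606, 716 and 710.5 with DMSO at 30 min, 733, 754 and 804 with tZ at 30 min, 1163, 1269 and 1154 with DMSO at 120 min, and 1202, 1059 and 1303 with tZ at 120 min. Its leaf signals were 1116, 1148 and 1024 with DMSO at 30 min, 798, 864 and 739.7 with tZ at 30 min, 1634, 1559 and 1718 with DMSO at 120 min, and 3167, 3049 and 3213 with tZ at 120 min. It alone among the 11 did not have its lowest root mean in the tZ 30 min group. In leaf all 3 tZ arrays at 120 min lay far above every other array of the gene.

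LOC4342532 (an s_at probe set, chromosome 7) was dimmer and its probes may also match more than 1 transcript. In root it gave 379.6, 332 and 272 with DMSO at 30 min, 202, 289.7 and 212 with tZ at 30 min, 522, 406 and 561 with DMSO at 120 min, and 588, 555 and 559 with tZ at 120 min. Leaf signals were 77.4, 111 and 113 with DMSO at 30 min, 49.6, 44.4 and 80.1 with tZ at 30 min, 121, 127 and 117 with DMSO at 120 min, and 213, 330.5 and 212 with tZ at 120 min. In leaf the DMSO arrays of the 2 times were nearly level, and the tZ arrays carried most of the distance between the times. In root the treatments overlapped at both times.

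LOC4346884 (an s_at probe set, chromosome 9) was the brightest of the 11 and had the smallest ratios between the times. Its root signals were 10102, 9747 and 10086 with DMSO at 30 min, 9719.6, 10096 and 9556 with tZ at 30 min, 11567, 10968 and 10667 with DMSO at 120 min, and 12188, 10834 and 11348 with tZ at 120 min. In leaf the corresponding signals were 12740.1, 12802 and 12315, then 11599, 12042 and 11601, then 13166, 14070.3 and 13676, and then 13703, 14567 and 14908. The treatments overlapped at both times in root and at 120 min in leaf, while at 30 min in leaf all 3 tZ arrays were lower.

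The unannotated probe set was the dimmest. In root it read 56.7, 35.4 and 71.0 with DMSO at 30 min, 26.2, 58.1 and 36.0 with tZ at 30 min, 258, 116 and 103 with DMSO at 120 min, and 76.2, 114 and 148 with tZ at 120 min. In leaf it read 18.2, 19.3 and 30.4, then 15.4, 20.6 and 7.20, then 145, 209.7 and 170.0, and then 50.4, 192 and 198. The treatments overlapped in all 4 settings. Replicates of its 120 min groups differed several-fold in places, and most of its 30 min signals were below the median signal of 63.5 over all probe sets and arrays.

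**Figure D2:**
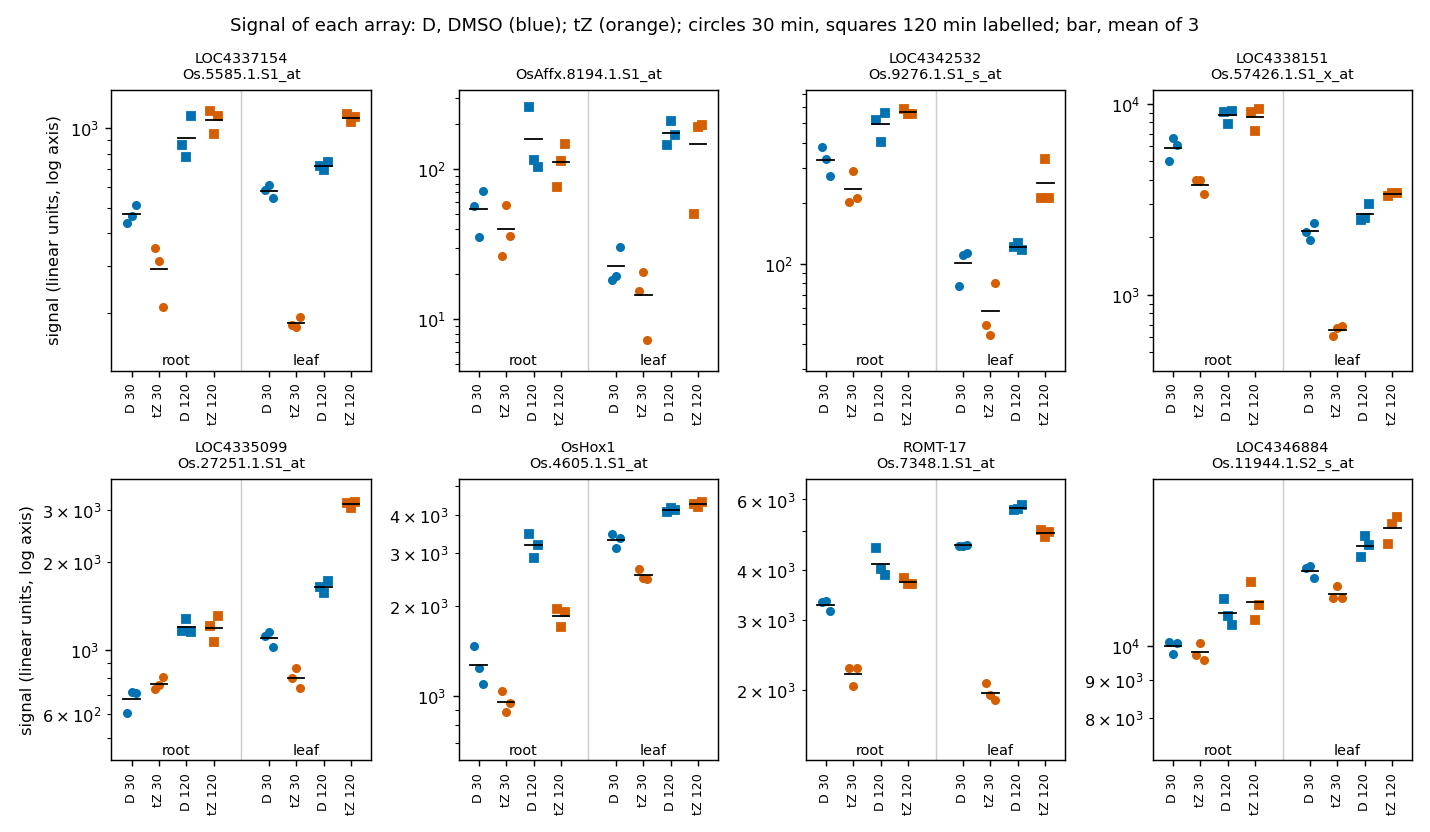
Each panel plots 1 probe set (LOC4338151 by its x_at probe set), with the raw signal of every array on a log axis for the 4 groups of root and the 4 of leaf; points are arrays (3 per group; DMSO blue and labelled D, tZ orange, circles 30 min, squares 120 min) and short bars are group means. In every panel the 120 min arrays of an organ sit above its 30 min arrays, as the rule required, and in leaf the tZ 30 min group has the lowest mean in every panel.

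The ratio of mean signal at 120 min to that at 30 min describes how large the chosen difference was. Over the 11 probe sets it had a median of 1.77 in root (1.14 to 2.87) and of 2.23 in leaf (1.15 to 8.69). LOC4338151 enters each median of the 11 with 4 values. Among DMSO arrays alone the median ratio was 1.51 in root (1.11 to 2.92) and 1.26 in leaf (1.08 to 7.73). Among tZ arrays alone it was 2.13 in root (1.17 to 3.67) and 4.34 in leaf (1.23 to 10.2). The ratio was larger with tZ than with DMSO for 8 of 11 probe sets in root and for 11 of 11 in leaf. OsHox1 was an exception in root, where its DMSO mean went from 1269 ± 189.5 to 3181 ± 290.2 and its tZ mean from 958 ± 76.8 to 1854 ± 133 (SD, n = 3).

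The rule placed both 30 min means below both 120 min means, so only 4 of the 24 possible orders of the group means could occur, and the counts of orders are a description. In leaf the tZ 30 min mean was the lowest for 11 of 11, and the order from tZ at 30 min through DMSO at 30 min and DMSO at 120 min to tZ at 120 min held for 9, from 6 genes. The unannotated probe set and ROMT-17 were the other 2, with their highest leaf mean in DMSO at 120 min. In root the tZ 30 min mean was the lowest for 10, the same full order held for 5, from 4 genes, and the highest mean was in tZ at 120 min for 5 and in DMSO at 120 min for 6, so no single order covered most of the 11. Of the 5 probe sets left out by name, 2 had that full order in leaf and 0 in root.

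The treatment difference at each time was not used by the rule, which pooled tZ and DMSO arrays and so limited the spread within a time but not the sign of the treatment difference. It was tested with limma on log2(signal + 20), over 34316 probe sets in each organ, with Benjamini-Hochberg adjustment at 0.05; log2 differences are on that scale and understate the change of dim probe sets. At 30 min in leaf, 9 of the 11 fell with tZ, from 6 genes, and 0 rose. Over all probe sets tested, 21.8% fell and 23.7% rose, and the median log2 difference was 0.03, against -1.22 for the 11. Here and in the other contrasts, the median of the 11 holds 4 values from LOC4338151, so it leans on that gene. In leaf at 30 min those 4 were -1.68 to -1.30. ROMT-17 fell by 1.22 on the log2 scale (SE 0.048, adjusted p = 3.6e-12), from 4604 ± 16.9 to 1971 ± 104. LOC4338151 fell by 1.68 (x_at, SE 0.084, adjusted p = 6e-11), and LOC4337154 fell by 1.55 (SE 0.082, adjusted p = 1.1e-10). LOC4342532 fell by 0.64 (SE 0.22, adjusted p = 0.026), LOC4335099 by 0.44 (SE 0.07, adjusted p = 5e-05) and OsHox1 by 0.39 (SE 0.052, adjusted p = 9.3e-06). The differences were -0.10 for LOC4346884 and -0.32 for the unannotated probe set, with adjusted p of 0.075 and 0.53. The call for LOC4342532 was lost under 5 alternatives, with an adjusted p of up to 0.099.

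In root at 30 min most of the 11 were lower with tZ as well. Of the 11, 8 fell, from 5 genes, and 0 rose, against 19.9% lower and 13.9% higher over all probe sets tested. The median log2 difference was -0.42 for the 11 and -0.04 over all. LOC4337154 fell by 0.68 (SE 0.17, adjusted p = 0.0046), from 471 ± 37.9 to 292 ± 72.9, and LOC4338151 fell by 0.64 (x_at, SE 0.11, adjusted p = 0.00032). ROMT-17 fell by 0.57 (SE 0.071, adjusted p = 1e-05), from 3274 ± 105 to 2199.7 ± 126, OsHox1 by 0.39 (SE 0.11, adjusted p = 0.0096) and LOC4342532 by 0.45 (SE 0.16, adjusted p = 0.044). LOC4335099 gave 0.17 (adjusted p = 0.22), the unannotated probe set gave -0.31 (adjusted p = 0.58) and LOC4346884 gave -0.03 (adjusted p = 0.78). The call for LOC4342532 was lost under 9 alternatives, and that for OsHox1 was lost without replicate 1 of root DMSO 30 min, where its difference was -0.28 (adjusted p = 0.062). With quantile normalization LOC4335099 rose by 0.30 (adjusted p = 0.046) and LOC4346884 fell by 0.24 (adjusted p = 0.00057).

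At 120 min in leaf 4 of the 6 genes that had fallen at 30 min were higher with tZ. Of the 11, 7 rose, from 4 genes, and 1 fell, against 22.0% higher and 21.4% lower over all probe sets tested, and the median log2 difference was 0.35 against 0.03 over all. LOC4335099 rose by 0.93 (SE 0.07, adjusted p = 1e-08), from 1637 ± 79.2 with DMSO to 3143 ± 84.7 with tZ. LOC4342532 rose by 0.91 (SE 0.22, adjusted p = 0.0027) and LOC4337154 by 0.59 (SE 0.082, adjusted p = 1.4e-05). The 4 probe sets of LOC4338151 rose by 0.34 to 0.47. The lowest of them, s_at, no longer passed when arrays were shifted to the same median (0.26, adjusted p = 0.15) or without replicate 1 of leaf DMSO 120 min (0.28, adjusted p = 0.063). The O-methyltransferase gene ROMT-17 fell by 0.20 (SE 0.048, adjusted p = 0.0023). OsHox1 differed by 0.06 (adjusted p = 0.37), LOC4346884 by 0.08 (adjusted p = 0.19) and the unannotated probe set by -0.38 (adjusted p = 0.45).

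At 120 min in root few of the 11 passed the test. OsHox1 fell by 0.77 (SE 0.11, adjusted p = 4.5e-05), from 3181 ± 290.2 with DMSO to 1854 ± 133 with tZ. The s_at probe set of LOC4338151 rose by 0.28 (SE 0.1, adjusted p = 0.045), a call that was lost under 6 alternatives, among them leaving out replicate 2 or replicate 3 of root DMSO 120 min or replicate 1 or replicate 3 of root tZ 120 min, where 1 of the 11 passed. The other 3 probe sets of that gene among the 11 differed by -0.03 to 0.09 and did not pass. Over all probe sets tested, 11.4% rose and 18.9% fell, and the median log2 difference was -0.0024 for the 11 and -0.10 over all.

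**Figure D3:**
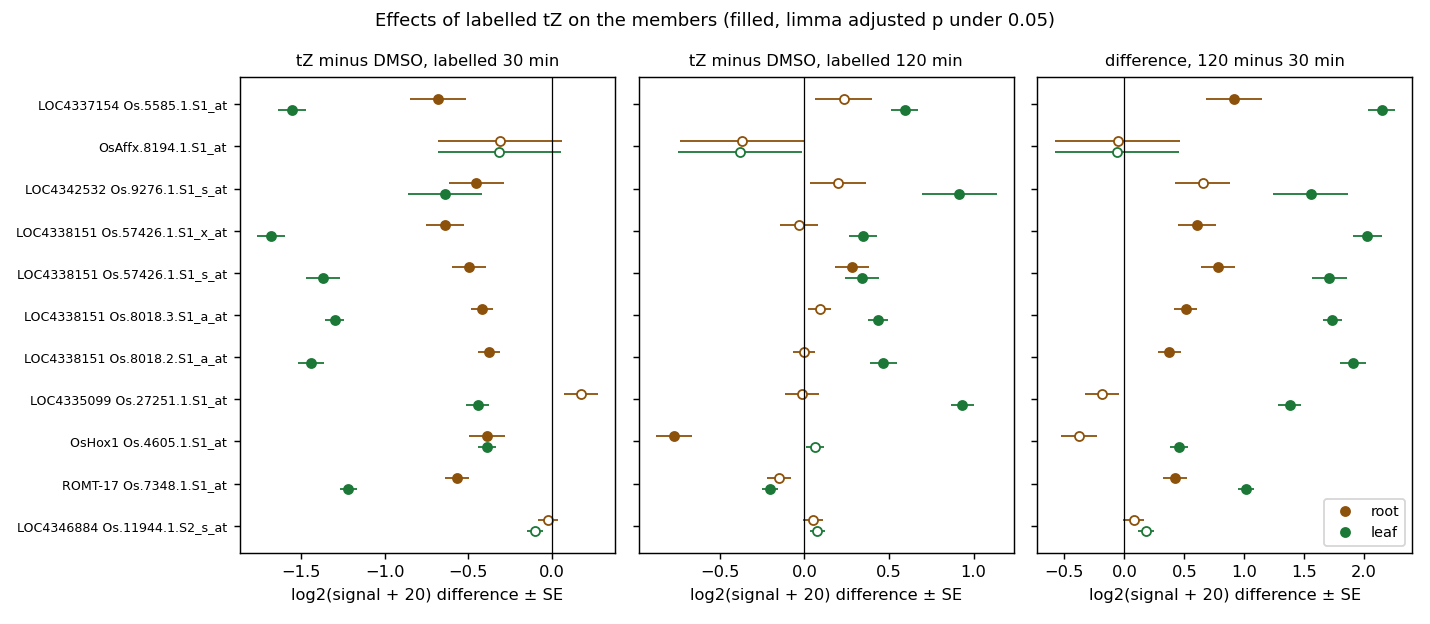
The log2 difference between tZ and DMSO, on the log2(signal + 20) scale, is plotted for each of the 11 probe sets at 30 min (left) and at 120 min (middle), with the change from 30 to 120 min (right), in root (brown) and in leaf (green), and with error bars of 1 SE from the limma fit; filled points passed an adjusted p of 0.05. At 30 min all 9 filled points in leaf and all 8 in root lie below 0, and at 120 min in leaf 7 filled points lie above 0 and ROMT-17 lies below.

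The change of the treatment difference from 30 to 120 min equals the difference between the time changes of tZ and DMSO arrays, both of which the rule required to be positive, so nothing is read from how many of the 11 passed. In leaf 9 of the 11 had a treatment difference that was higher at 120 min than at 30 min, and 0 lower, against 2.03% and 1.80% of all probe sets tested. The largest was 2.14 (SE 0.12, adjusted p = 1.5e-08) for LOC4337154 and the smallest among those called was 0.45 (SE 0.074, adjusted p = 0.0015) for OsHox1. The OsHox1 call was lost when arrays were shifted to the same median (0.42, adjusted p = 0.13) and when all 24 arrays shared the spread (adjusted p = 0.0505). In root 6 of the 11, from LOC4337154, LOC4338151 and ROMT-17, had a higher difference at 120 min, and 0 a lower one, against 2.60% and 2.00% over all. LOC4337154 had 0.91 (SE 0.24, adjusted p = 0.039) and ROMT-17 had 0.42 (SE 0.1, adjusted p = 0.026). The root count is not stable: leaving out 1 array of the organ at a time gave 2 to 6, and it kept within 1.5 times of 6 only without replicate 1 of root tZ 30 min or replicate 2 of root tZ 120 min.

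Leaf and root also differed from each other in the size of the response, tested as the tZ effect in leaf minus that in root over 38131 probe sets. At 30 min 7 of the 11 were lower in leaf than in root, from 4 genes, and 0 were higher, against 13.2% and 18.1% over all. LOC4338151 differed by -1.04 (x_at, SE 0.15, adjusted p = 5.5e-06), LOC4337154 by -0.87 (SE 0.2, adjusted p = 0.0011), ROMT-17 by -0.65 (SE 0.082, adjusted p = 7.9e-07) and LOC4335099 by -0.62 (SE 0.12, adjusted p = 0.00023). At 120 min 4 were higher in leaf, from 3 genes, and 0 lower, against 17.3% and 13.4% over all. They were LOC4335099 with 0.95 (SE 0.12, adjusted p = 7.3e-07), OsHox1 with 0.83 (SE 0.12, adjusted p = 5.9e-06), and the a_at probe sets of LOC4338151 with 0.47 for the dimmer and 0.35 for the brighter. When arrays were shifted to the same median, the last 2 did not pass. For OsHox1 the 30 min effect differed between the organs by 0.00 (SE 0.12).

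In DMSO at 30 min, levels differed between the organs in both directions. Of the 11, 4 from 4 genes were higher in leaf and 5 from 2 genes were higher in root. Over all probe sets tested the shares were 26.1% and 34.0%, and nothing is read from counts this near to them. OsHox1 was 1.38 higher in leaf on the log2 scale (SE 0.086, adjusted p = 4e-13), LOC4335099 was 0.68 higher, ROMT-17 0.49 higher and LOC4346884 0.34 higher. LOC4338151 was lower in leaf by a log2 difference of -1.45 (x_at, SE 0.11, adjusted p = 1.1e-11), and LOC4342532 by one of -1.53 (SE 0.2, adjusted p = 3.3e-07). LOC4337154 differed by 0.28 (adjusted p = 0.082) and the unannotated probe set by -0.78 (adjusted p = 0.08). When arrays were shifted to the same median, LOC4337154 passed with 0.79 (adjusted p = 7.4e-05). It also passed with quantile normalization, at 0.37 (adjusted p = 0.039). Median signals were 68.2 to 86.7 on root arrays and 47.6 to 57 on leaf arrays.

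Other probe sets of the same genes give a check on single readings. Those that did not meet the rule numbered 7, for LOC4342532, LOC4338151, ROMT-17 and LOC4346884. Their 120 to 30 min ratios of mean signal were 1.02 to 2.03 in root and 1.09 to 1.93 in leaf. A second x_at probe set of LOC4338151, which did not meet the rule, separated the times in root with a margin of 1.08 and not in leaf, where the margin was 0.426. The x_at probe set of ROMT-17 came close, with 1.06 in root and 0.971 in leaf.

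The probe sets of ROMT-17 disagreed in leaf. With tZ at 30 min the x_at probe set fell by 0.90 (adjusted p = 4.4e-10), in the direction of the probe set that met the rule, whereas another with a plain at suffix rose by 0.52 (adjusted p = 1.9e-04). At 120 min that last probe set rose by 0.57 (adjusted p = 8.1e-05), where the one that met the rule fell by 0.20. Its tZ effect at 30 min was 0.82 higher in leaf than in root, against -0.65, and its leaf level in DMSO at 30 min differed from root by -1.82, against 0.49. The brightest probe set of ROMT-17, with an a_at suffix, did not pass in leaf. Its tZ effect there was -0.12 at 30 min (adjusted p = 0.58) and -0.21 at 120 min (adjusted p = 0.33). The statements on ROMT-17 above hold for the probe set that met the rule. The second probe set of LOC4342532 fell by 0.72 with tZ in root at 120 min (adjusted p = 0.044), where the one that met the rule read 0.20 (adjusted p = 0.42). For LOC4338151 the second x_at probe set gave 0.0065 with tZ in root at 30 min (adjusted p = 0.98). At 120 min in root it rose by 0.60 (adjusted p = 0.012). The remaining probe set of that gene gave -0.41 and -0.66 in root at these times (adjusted p = 0.61 and 0.39). In leaf at 30 and 120 min the second probe set of LOC4342532 gave -0.27 and 0.42. The second x_at probe set of LOC4338151 gave -0.83 and 0.57 there, and the remaining one 0.30 and 0.82. These leaf differences did not pass (adjusted p of 0.0502 or more). Group means were only 42.1 to 208 for the second probe set of LOC4342532 and 57.3 to 226 for the remaining one of LOC4338151. For LOC4346884 the second probe set was lower in leaf than in root in DMSO at 30 min, by a log2 difference of -1.39 against 0.34. LOC4337154, LOC4335099 and OsHox1 had no other probe set.

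**Figure D4:**
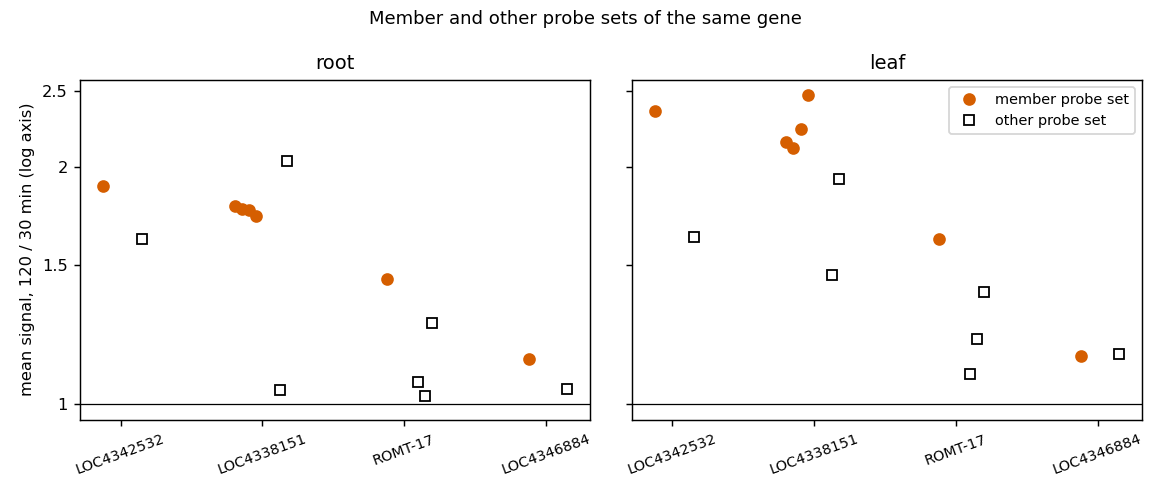
For genes with more than 1 probe set, the ratio of mean signal at 120 min to that at 30 min is plotted on a log axis for each probe set in root and in leaf; filled circles met the rule and open squares did not. The 7 open squares lie at 1.02 to 2.03 in root and at 1.09 to 1.93 in leaf.

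Among gene lists drawn up around the cytokinin pathway, 2 classes held genes that met the numeric rule. Genes were found by name, and 34663 of the 57194 probe sets have no gene, so these lists may not hold whole families. Of 6 type-A response regulator genes found 5 passed the minimum signal and 4 met the rule. The fifth, OsRR2, had a margin of 1.80 in root and 0.919 in leaf. Of 5 CKX genes found 3 passed the minimum and 1, OsCKX4, met the rule. Both classes were those the naming filter removed. Among 8 genes of cytokinin activation (LOG and its relatives, which release the active hormone), 11 genes for receptors, phosphotransfer proteins and type-B regulators, and 4 GATA factor genes, 0 met it, although 8, 10 and 3 of them had the minimum signal. The GATA factor genes were found by name, most also carry TIFY names, and they are not taken here as genes of the pathway. The receptor gene OsHK4 came near, with margins of 1.05 in root and 0.89 in leaf.

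Calls in these gene lists stand beside 23.7% higher and 21.8% lower over all probe sets in leaf at 30 min, 22.0% and 21.4% in leaf at 120 min, 13.9% and 19.9% in root at 30 min, and 11.4% and 18.9% in root at 120 min. With lists of 3 to 11 tested genes, many of the counts are near these shares. With tZ in leaf at 30 min 1 of 5 tested type-A genes rose and 2 fell, and at 120 min 4 rose and 0 fell. In root 3 rose and 1 fell at 30 min, and 2 rose and 1 fell at 120 min. Of the CKX genes in leaf, 1 of 3 rose and 2 fell at 30 min, and 3 rose at 120 min; in root 1 of 5 rose and 2 fell at 30 min, and 2 rose and 2 fell at 120 min. For the activation genes, 6 of 8 fell and 1 rose in leaf at either time, and in root 4 fell at 30 min with 0 higher, and 5 fell and 1 rose at 120 min. Of the 11 receptor, phosphotransfer and type-B genes 6 fell and 2 rose in leaf at 30 min, 5 fell and 1 rose in leaf at 120 min, 4 fell and 1 rose in root at 30 min, and 5 fell and 2 rose in root at 120 min. The GATA factor genes gave 1 fall among 3 in leaf at 30 min, 1 rise and 1 fall there at 120 min, 1 rise among 4 in root at 30 min and 0 calls in root at 120 min. The list drawn up by name for homeodomain-leucine zipper genes held 26, among them HAZ1. Membership of the family was not checked gene by gene. Of the 26 genes 17 had the minimum signal and OsHox1 alone met the rule.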

How the data were processed

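The table covers 24 arrays and 57381 probe sets; 187 controls were dropped. The deposited values are intensity on a linear scale, which the authors had processed and, by the values themselves, scaled to a common trimmed mean. How they summarised probes and corrected background is not given in the sources used here. The members, the gene lists and the tests were chosen with earlier results of these data known. The rule was applied to the raw signal. For tests, values became log2(signal + 20); the pseudocount 20 comes from dividing the median signal, 63.5, by 4 and rounding to 1 digit. Probe sets with a mean log2 value above the 40th percentile of an organ were tested (34316 in each, 38131 in at least 1) with limma 3.58.1 in R 4.3.3 (lmFit, eBayes with intensity trend, two-sided, Benjamini-Hochberg at 0.05). The 12 arrays of an organ shared a fit, and contrasts between organs used all 24. The fit was tested on simulated data. Of the 57194 probe sets 22436 have 1 gene, 95 several and 34663 none in the platform annotation; all 22436 were found in RefSeq (ASM3414082v1), which gave symbols and chromosomes.

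Named genes are every member, the 3 probe sets nearest inside and outside the rule, the OsRR and OsCKX names that met it, and, by count, the genes of the cytokinin lists. In all, 32 gene lists were searched by symbol. Only those of type-A regulators, CKX genes and homeodomain-leucine zipper factors held genes that met the numeric rule. Alternatives covered the pseudocount, the filter, the spread (shared by all 24 arrays within organs, without the intensity trend between organs), a replicate block, median and quantile scaling, the minimum signal and leaving out each array. Precision is limited by 3 arrays per group. Probe sets whose suffix marks probes that may match several transcripts are uncertain between related transcripts.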

Additional observations from a re-analysis of the deposited data

Results flagged for a closer look

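Results are listed here where the effect of tZ differed between the times or between the organs by limma's test of the difference itself (adjusted p at 0.05), on the log2(signal + 20) scale. The rule that chose the probe sets bears on the differences between times.

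In root, the tZ effect at 120 min was above that at 30 min by 0.91 for LOC4337154 and by 0.42 for ROMT-17. The 4 probe sets of LOC4338151 gave 0.61 for x_at, 0.78 for s_at, 0.51 for the brighter a_at and 0.38 for the dimmer a_at. In leaf the same difference was 2.14 for LOC4337154, 1.55 for LOC4342532, 1.38 for LOC4335099, 1.01 for ROMT-17 and 0.45 for OsHox1, the last of which was lost under 2 alternatives. LOC4338151 gave 2.03, 1.71, 1.74 and 1.91 in leaf, in the order of probe sets above. Several root calls were also lost: LOC4337154 under 12 alternatives and ROMT-17 under 6. For LOC4338151 the root call was lost under 13 for x_at and under 12 for the dimmer a_at.

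At 30 min the tZ effect in leaf was below that in root. The difference, leaf minus root, was -0.87 for LOC4337154, -0.62 for LOC4335099 and -0.65 for ROMT-17. For the probe sets of LOC4338151 it was -1.04, -0.87, -0.88 and -1.06, in the same order. At 120 min the effect in leaf was above that in root by 0.95 for LOC4335099 and by 0.83 for OsHox1. For LOC4338151 it was 0.35 for the brighter a_at and 0.47 for the dimmer a_at probe set. Both a_at calls were lost when arrays were shifted to the same median (0.12 and 0.25, adjusted p = 0.53 and 0.22).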

How the results depend on the processing

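No alternative turned the direction of a called difference among the 11 probe sets. The count passing in root at 120 min, 2, became 1 without the filter. The root count for the change of the tZ effect with time, 6, became 3 without the filter and 3 with quantile normalization, and the leaf minus root count at 120 min, 4, became 2 when arrays were shifted to the same median. The rule gave 8 probe sets after that shift, 7 of them among the 11, and 11 after quantile normalization, with 10 shared. It gave 9 at a minimum signal of 200 and 11 with no minimum.

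Leaving out 1 array at a time, the rule gave 11 to 13 probe sets, always with the 11 among them. The counts passing ranged from 6 to 8 in root at 30 min, 1 to 2 in root at 120 min, 8 to 9 in leaf at 30 min and 7 to 8 in leaf at 120 min. The change with time ranged from 2 to 6 in root and stayed at 9 in leaf, leaf minus root stayed at 7 at 30 min and ranged from 4 to 6 at 120 min, and leaf against root in DMSO stayed at 9. Of 62 single calls 12 were lost under at least 1 alternative. Quantile normalization added 1 call against the others of its comparison in root at 30 min (LOC4335099, higher by 0.30) and 1 in leaf minus root at 30 min (LOC4346884, higher by 0.18).

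Same-numbered arrays of different groups did not deviate together (correlations of -0.055 to 0.075 in root and -0.040 to 0.021 in leaf), so the numbers were not taken as pairs. With a replicate block the counts were 7 in root and 9 in leaf at 30 min, 2 and 8 at 120 min, 4 and 9 for the change with time, 7 and 4 for leaf minus root, and 9 for leaf against root. Among the 11, the unannotated probe set has signals nearest to the pseudocount, so its log2 differences are shrunk most.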
